A study of Mus musculus with 20 samples.

Results

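Vegfa, Vegfb, Vegfc, Flt1, Kdr, Tek, Tie1, Pecam1, Cdh5 and Hif1a, the VEGF ligands and receptors with markers of vascular endothelium and the oxygen-regulated factor Hif1a, were followed over a dose series of TCDD in fetal mouse hearts. All probe sets that the platform annotation gives to these 10 symbols were taken, which came to 13 of the 12422 probe sets of the array. Flt1, Tie1 and Hif1a have 2 probe sets each and the other genes 1. The rule used symbols and no signals, but the genes were chosen with earlier results of these data known.

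RNA of whole hearts was hybridised to 20 Affymetrix MG-U74Av2 arrays, 1 sample per array. There were 8 vehicle controls (corn oil by oral gavage) and 4 arrays at each of 1.5, 3 and 6 µg/kg TCDD. TCDD is the most potent dioxin and activates the aryl hydrocarbon receptor (AhR), a ligand-bound transcription factor. Dosing was on gestation day 14.5 and collection on day 17.5, except that the label of replicate 1 at the lowest dose appears to give the dosing day with a misplaced decimal point. No strain is stated. Whether hearts were hybridised singly, pooled or by litter is also unstated, and a p here covers only how far arrays of a group scatter, which may be technical. The design text of the series names 4 replicates per dose including the vehicle, whereas 8 controls are labelled, so results were also computed with controls 1 to 4, or controls 5 to 8, as the only controls.

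VEGF-A, made by many tissues, binds the receptor Kdr (VEGFR-2), the main signalling receptor of endothelium. Flt1 (VEGFR-1) binds VEGF-A tightly and also VEGF-B, and restrains signalling through Kdr. VEGF-C acts mainly in lymphatic growth. Tek is the receptor of the angiopoietins and Tie1 its partner, while Pecam1 and Cdh5 (VE-cadherin) are adhesion molecules of endothelial junctions. Hif1a is the oxygen-regulated subunit of the factor HIF-1, a known activator of the Vegfa gene that shares its partner Arnt with AhR. The coronary plexus grows through late gestation, and its growth is a proposed target of TCDD.

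None of the 13 probe sets differed from controls past an adjusted p of 0.05 at any dose, and none had a linear trend over dose that did. The values are MAS5 signals, a linear intensity, and tests were made with limma on log2(signal + 32), so folds of dim genes are understated. At 1.5 µg/kg 6 of the 13 were above controls and 7 below, and the lowest limma adjusted p was 0.340. At 3 µg/kg 3 were above and 10 below (lowest adjusted p 0.895 by limma), and at 6 µg/kg 4 were above and 9 below (lowest 0.504). At an unadjusted p under 0.05 the counts of the 13 were 2, 0 and 2 in order of dose, and 1 for the trend. Over the 8097 probe sets tested these shares were 12.6%, 5.72% and 9.15%, and 7.22% for the trend. The counts depend on the controls: at 6 µg/kg they were 4 with controls 1 to 4 and 0 with controls 5 to 8, against 17.6% and 4.71% of all probe sets. For the trend they were 6 with controls 1 to 4, where the share of all probe sets was 17.8%, and 1 with controls 5 to 8, where it was 4.33%.

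Few probe sets of the whole array passed either. The share called was 0.21%, 0.0247% and 0.0741% in order of dose, and 0.0618% for the trend. By a second measure, none of the 13 had all 4 arrays of a dose above or all 4 below the range of the 8 controls. That held for 1.46%, 0.543% and 0.852% of all probe sets in order of dose. A count of 0 among 13 is near these shares, so what follows gives the sizes of the differences and their intervals.

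The 95% intervals bound the differences. They lay within 2-fold in either direction for 12, 13 and 12 of the 13 probe sets in order of dose, and Pecam1 was the exception at the lowest and the highest. Within 1.5-fold lay 10, 11 and 10 of the 13. The intervals are those of single probe sets and were not adjusted for their number. The median difference of the 13 on the log2 scale was -0.054, -0.094 and -0.096 in order of dose, against medians of 0.0088, 0.0047 and -0.0013 over all probe sets tested.

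**Figure D1:**
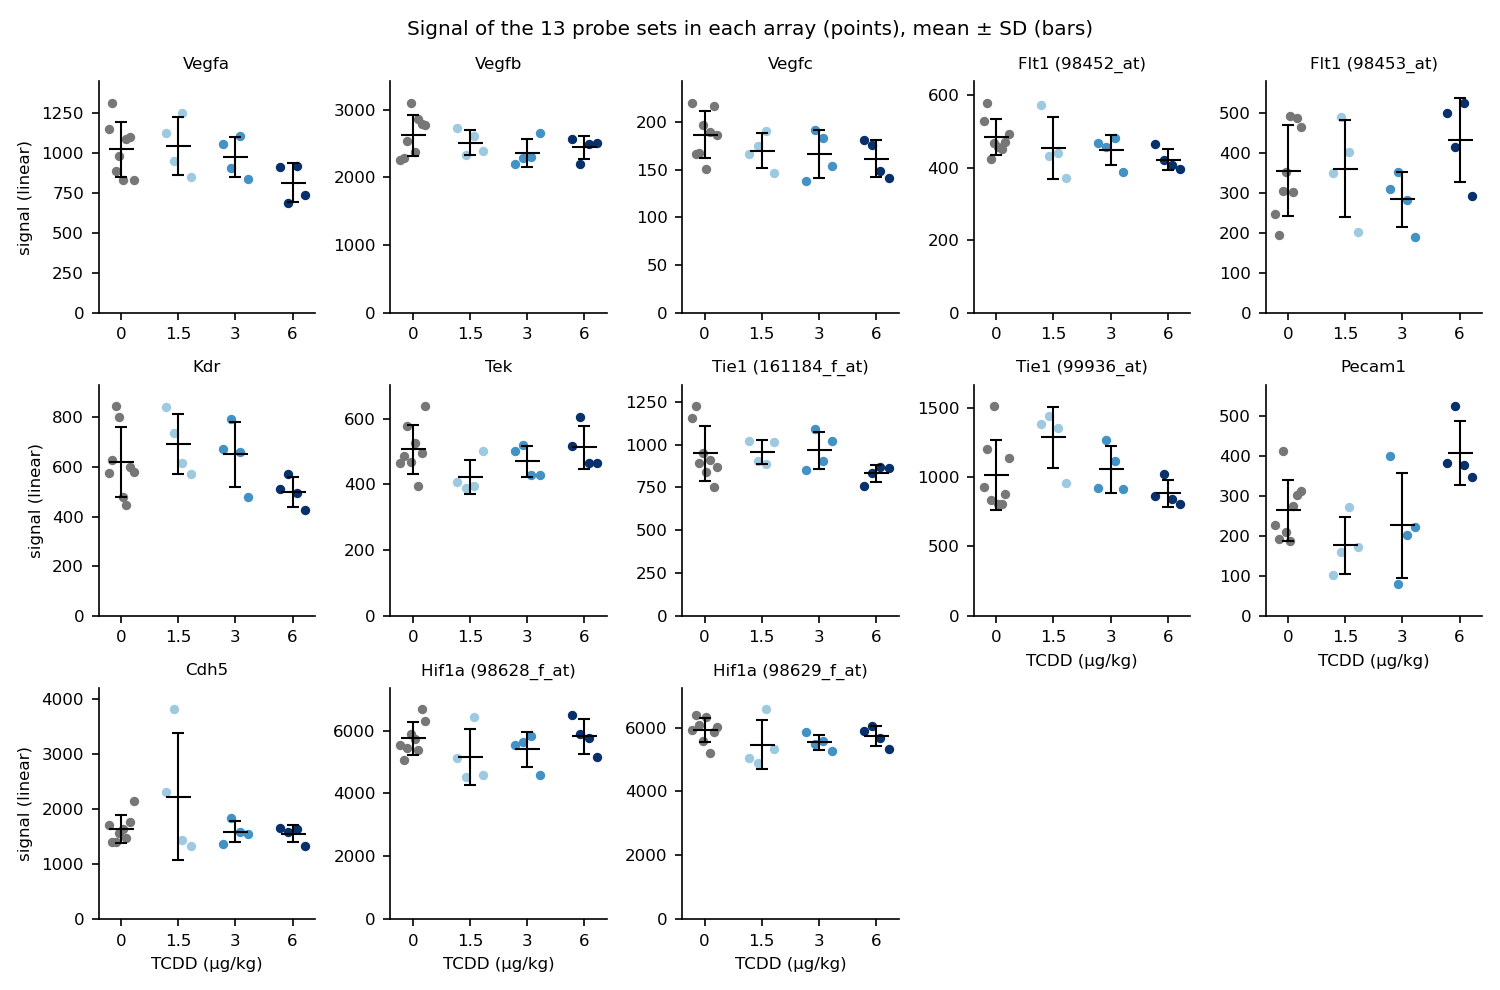
MAS5 signal (linear, from 0) of each of the 13 probe sets in every array against TCDD dose in µg/kg, where 0 is the corn oil control (n = 8, others n = 4). Points are arrays and bars are mean ± SD. The dose groups overlap the controls in every panel, and the widest scatter is in Pecam1, the second Flt1 probe set and Cdh5 at 1.5 µg/kg.

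Vegfa (probe set 103520_at, chromosome 17, 46016993 to 46032377 of assembly GRCm38.p6) is the principal growth factor for endothelial cells. Its signal ran from 829 to 1314 in the 8 controls with a median of 1032. With 1.5 µg/kg the arrays gave 1124, 949, 1250.0 and 847, and with 3 µg/kg 1056, 905, 1102 and 838. With 6 µg/kg they gave 912, 685, 918 and 736. The arrays of the highest dose were thus all below the control median, and 2 of them were below every control. The mean at 6 µg/kg was 813 ± 119.8 (SD, n = 4), against 1021 ± 171 (SD, n = 8) in controls. The log2 difference was -0.31 ± 0.13 (SE), a fold of 0.805 with a 95% interval of 0.669 to 0.969, and did not pass (limma adjusted p = 0.504). The differences at the lower doses were 0.031 and -0.056. The slope was -0.051 log2 units per µg/kg (limma adjusted p = 0.612), the lowest adjusted p of a trend among the 13. Over the alternatives tried the difference at 6 µg/kg stayed below 0, between -0.39 and -0.14, and its lowest adjusted p was 0.139. The value of -0.14 was reached by dropping controls 1, 2 and 6 and array 4 of 6 µg/kg, whose β-actin ratio was high. Vegfa was at 1150, 1314 and 1087 in these controls and at 736 in that array. Without them 0 of the 13 had an unadjusted p under 0.05 at 6 µg/kg by limma, against 2 with all arrays. The size of the Vegfa difference thus depends on these arrays.

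At 6 µg/kg the other ligands lay nearer to controls than Vegfa. Vegfb (103001_at, chromosome 19, 6982472 to 6987651), a ligand of Flt1 with a role in heart muscle metabolism, averaged 2622 ± 306 in controls (SD, n = 8). Over the doses from low to high it averaged 2515 ± 181, 2359 ± 203 and 2442 ± 169 (SD, n = 4 each). Its log2 differences were -0.054, -0.15 and -0.096 (SE 0.088), all within the spread between arrays by limma (lowest adjusted p 0.756 at 6 µg/kg and 0.895 at 3 µg/kg). Vegfc (94712_at, chromosome 8, 54077532 to 54186454), the lymphatic ligand, averaged 187 ± 24.5 in controls and, with rising dose, 169.6 ± 18.3, 166 ± 25.0 and 161 ± 19.3. Its differences were -0.11, -0.14 and -0.17 (SE 0.12), and none passed (lowest limma adjusted p 0.669 at 6 µg/kg). In order of dose 1, 1 and 2 of the 4 arrays were below every control, and at 6 µg/kg 0 were above the control median. Its signal lay near the array medians of 171 to 209.9.

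Ligand-bound AhR with Arnt binds a DNA element whose core is GCGTG, so the 250 bases before each annotated start in RefSeq (GRCm38.p6) were searched for GCGTG on both strands, and for ACGTG, the core of the HIF element. Of the 10 genes 8 were in that table, with 9 windows. Pecam1 and Cdh5 were not in it. GCGTG was found in 4 of the 9 windows, those of Kdr, Flt1, Vegfb and the downstream start of Vegfa, and in 28.2% of all 32851 windows. ACGTG was found in 2 of 9, those of Hif1a and the downstream start of Vegfa, and in 16.6% of all windows. No GCGTG match overlapped an ACGTG match in the windows of these genes, while 2 of the ACGTG matches of Hif1a, on opposite strands, overlap. A match describes the letters and is not a binding site. The 3 windows below lie outside the annotated span of their gene and are shown to set the ligand with most matches and the main Vegfa start beside Cyp1b1, an AhR target that rose at every dose. Capitals mark GCGTG, or CACGC where it lies on the other strand. The Vegfb window is chr19:6987652-6987901 on the minus strand, with matches starting 237 and 81 bases before the start. The window of the upstream Vegfa start is chr17:46032378-46032627 on the minus strand and has none. The Cyp1b1 window is chr17:79715062-79715311 on the minus strand, with a match 76 bases before the start.
Vegfb: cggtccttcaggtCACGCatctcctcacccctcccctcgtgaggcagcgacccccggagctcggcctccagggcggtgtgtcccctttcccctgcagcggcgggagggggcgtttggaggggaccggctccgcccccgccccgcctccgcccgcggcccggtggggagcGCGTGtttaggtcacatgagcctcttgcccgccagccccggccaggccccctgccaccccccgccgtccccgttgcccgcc
Vegfa: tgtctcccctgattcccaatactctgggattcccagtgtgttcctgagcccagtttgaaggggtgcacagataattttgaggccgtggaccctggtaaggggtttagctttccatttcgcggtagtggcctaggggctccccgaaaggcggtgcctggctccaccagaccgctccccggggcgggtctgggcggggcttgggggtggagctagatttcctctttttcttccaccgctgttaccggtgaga
Cyp1b1: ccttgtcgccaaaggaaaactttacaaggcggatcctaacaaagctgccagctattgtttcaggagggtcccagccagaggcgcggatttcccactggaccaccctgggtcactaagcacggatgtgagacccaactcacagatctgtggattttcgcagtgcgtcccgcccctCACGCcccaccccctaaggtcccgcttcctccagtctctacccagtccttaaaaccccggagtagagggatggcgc

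Cyp1b1 (99979_at) and Cyp1a1 (94715_at), cytochrome P450 enzymes induced through AhR, checked the labelled exposure. Cyp1b1 was called at each dose with a log2 difference of 1.39 at the lowest and 2.04 at the highest (limma adjusted p = 0.000174 and 1.49e-07). In Cyp1a1 they were 1.76, 2.12 and 2.93 (limma adjusted p = 0.00681, 0.000573 and 1.97e-06), while a further Cyp1a1 probe set (161831_at) was at -0.13, -0.44 and 0.18 and not called. Both called probe sets were dim in controls, with means of 39.6 (Cyp1a1) and 79.1 (Cyp1b1). Nqo1 (-0.049, 0.17 and 0.17), Tiparp (0.036, 0.25 and 0.21) and Ahr (0.061, 0.21 and -0.17), also in the AhR list, were not called at any dose.

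**Figure D2:**
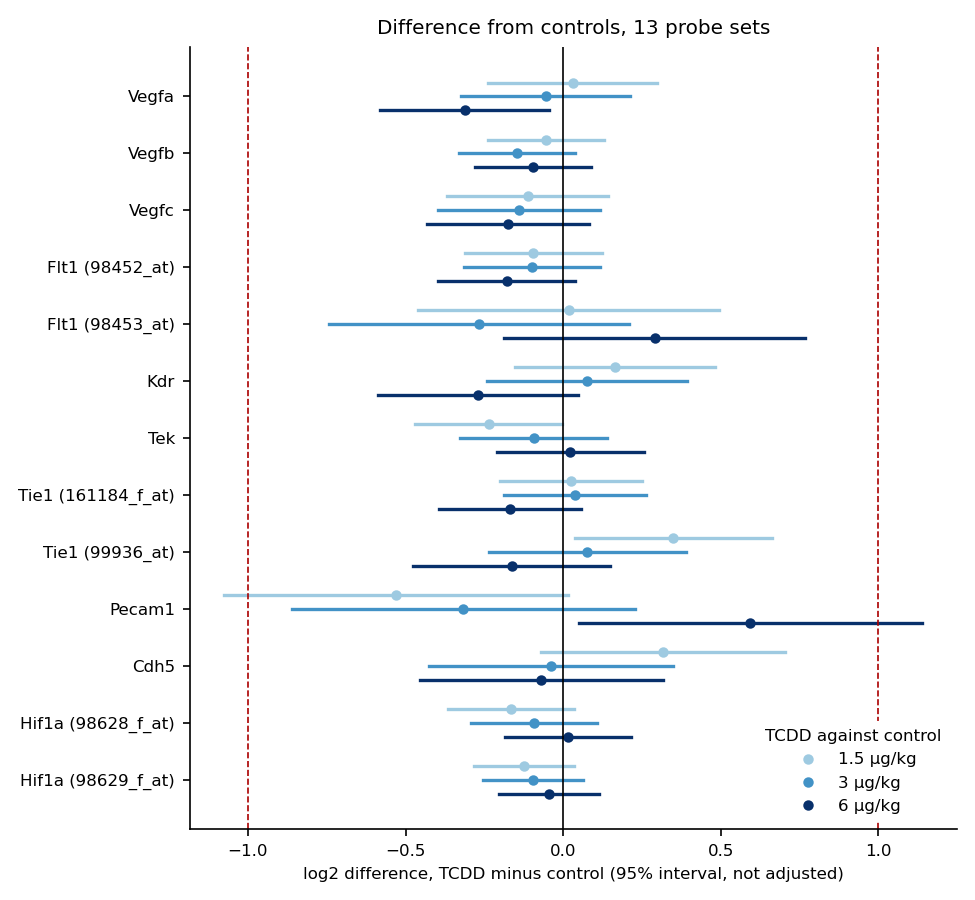
Log2 difference of TCDD minus control (x axis) with its 95% interval from limma for each of the 13 probe sets (y axis), coloured by dose, with dashed lines at a 2-fold change in either direction. The Pecam1 intervals at 1.5 and 6 µg/kg are the ones that cross a dashed line. The intervals of Vegfa and Pecam1 at 6 µg/kg and of Tek and Tie1 99936_at at 1.5 µg/kg leave out 0 before adjustment.

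Kdr (104265_at, chromosome 5, 75932827 to 75979072) ran from 445 to 846 in controls with a median of 588. The 4 arrays gave 840.0, 735, 617 and 572 with 1.5 µg/kg, 671, 794, 659 and 477 with 3 µg/kg, and 511, 570.5, 494 and 425 with 6 µg/kg. The arrays of 6 µg/kg were all below the control median, and 1 was below every control. The differences were 0.17, 0.076 and -0.27 (SE 0.15), with a limma adjusted p of 0.593 at 6 µg/kg. Kdr also differed between the control sets: controls 5 to 8 averaged 525 and controls 1 to 4 averaged 713. The difference at 6 µg/kg was -0.48 with the lower-numbered set as the only controls and -0.063 with the higher-numbered set, and neither passed.

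Flt1 (chromosome 5, 147561604 to 147726438) gave different pictures by its 2 probe sets, and the annotation does not say whether they read the membrane-bound or the soluble form. By 98452_at it averaged 483 ± 49.2 in controls (SD, n = 8) and, with rising dose, 454 ± 85.2, 449 ± 41.8 and 422 ± 29.9 (SD, n = 4 each). At 6 µg/kg the arrays gave 464, 421, 407 and 396, of which 3 were below every control. The difference was -0.18 ± 0.10 (SE; limma adjusted p = 0.602). By 98453_at the 4 arrays at 6 µg/kg gave 499.7, 416, 527 and 293, against 195 to 493 with a median of 329 in controls, and 2 of the 4 were above every control. The difference was 0.29 ± 0.23 (SE; limma adjusted p = 0.709). The second probe set moved with the control set more than any other of the 13, at 437 in controls 5 to 8 and 275 in controls 1 to 4. Its difference at 6 µg/kg was 0.60 with controls 1 to 4 and -0.017 with controls 5 to 8.

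Where a gene had 2 probe sets, their agreement over the 20 arrays was tested, 3 relations in all. The Hif1a pair had Pearson's r = 0.620 and Spearman's rho = 0.534 (permutation p = 0.00381 and 0.017, adjusted 0.0114 and 0.0511). Without the 2 arrays farthest from the median r was 0.468, and with the group means taken off it was 0.550. The Tie1 pair had r = 0.372 and rho = 0.468 (permutation p = 0.106 and 0.0401, adjusted 0.160 and 0.0601), r = 0.456 without the 2 farthest arrays and 0.264 within groups. The Flt1 pair had r = -0.0039 and rho = -0.018 (permutation p = 0.987 and 0.941, adjusted the same), r = 0.291 without the 2 farthest arrays and 0.089 within groups. No relation between the 2 readings of Flt1 was thus detectable, so values of that gene hold for a probe set rather than for the gene.

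Tek (102720_at, chromosome 4, 94739086 to 94874976), the angiopoietin receptor, gave 408, 390.1, 395 and 501 at 1.5 µg/kg, against 395 to 639.6 with a median of 491 in controls. Of these 4 arrays 2 were below every control and 1 was above the control median. The difference was -0.24 ± 0.11 (SE; limma adjusted p = 0.389). At 3 and 6 µg/kg Tek averaged 470.3 ± 47.5 and 513 ± 65.6, and its differences were -0.094 and 0.023. The lowest dose thus had the largest difference of Tek, and the highest dose lay on the controls.

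Tie1 (chromosome 4, 118471191 to 118489849) was read by 99936_at and by 161184_f_at, whose suffix marks probes shared within a sequence family. By 99936_at the arrays at 1.5 µg/kg gave 1383, 1442, 1358 and 960.2, against 805 to 1515 with a median of 905 in controls. They were all above the control median but within the control range. The difference was 0.35 ± 0.15 (SE; limma adjusted p = 0.340). At 3 and 6 µg/kg it was 0.077 and -0.16. By 161184_f_at the differences were 0.025, 0.037 and -0.17 (SE 0.11). The difference between the 2 readings of Tie1 at the lowest dose was not tested.

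Pecam1 (97830_at, chromosome 11, 106654213 to 106715281) had the widest scatter of the 13 and the largest differences. It ran from 186 to 411 in controls with a median of 251. The 4 arrays gave 101, 159, 273 and 173 with 1.5 µg/kg, 400.3, 79.4, 201 and 223 with 3 µg/kg, and 382, 525, 377 and 347 with 6 µg/kg. At 1.5 µg/kg 3 of 4 arrays were below every control, and at 6 µg/kg all 4 were above the control median and 1 above every control. The differences were -0.53, -0.32 and 0.59, each ± 0.26 (SE; limma adjusted p = 0.409, 0.939 and 0.516). The joint test of the 3 doses gave a limma adjusted p of 0.221. The residual SD of Pecam1 was 0.48 on the log2 scale, at percentile 92.5 of the probe sets tested, whose median was 0.23. At 3 µg/kg 1 array decides the sign: without the array at 79.4 the difference was 0.034.

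Cdh5 (104083_at, chromosome 8, 104101613 to 104144504) gave 2314, 3818, 1437 and 1328 at 1.5 µg/kg, against 1407 to 2153 with a median of 1595 in controls. So 2 arrays were above every control and 1 below. That dose averaged 2224 ± 1150.5 (SD, n = 4), against 1637 ± 247 in controls (SD, n = 8), a difference of 0.32 ± 0.19 (SE; limma adjusted p = 0.492). At 3 and 6 µg/kg it averaged 1587 ± 191 and 1551 ± 156, with differences of -0.039 and -0.070. Cdh5 and Pecam1 thus lay on opposite sides of controls at 1.5 µg/kg. At 6 µg/kg the sign of Cdh5 was unsettled, at 0.027 with controls 1 to 4.

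Hif1a (chromosome 12, 73901324 to 73947554) gave, by 98629_f_at, the smallest scatter of the 13. It averaged 5924 ± 384 in controls (SD, n = 8) and, with rising dose, 5463 ± 767, 5538 ± 245 and 5741 ± 318 (SD, n = 4 each). The residual SD was 0.11 on the log2 scale, at percentile 3.51 of the probe sets tested. The differences were -0.12, -0.095 and -0.044 (SE 0.077), and by 98628_f_at -0.16, -0.093 and 0.016 (SE 0.097). Both probe sets carry the suffix for shared probes. HIF-1 is controlled mainly through the stability of the protein, which these arrays do not measure.

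**Figure D3:**
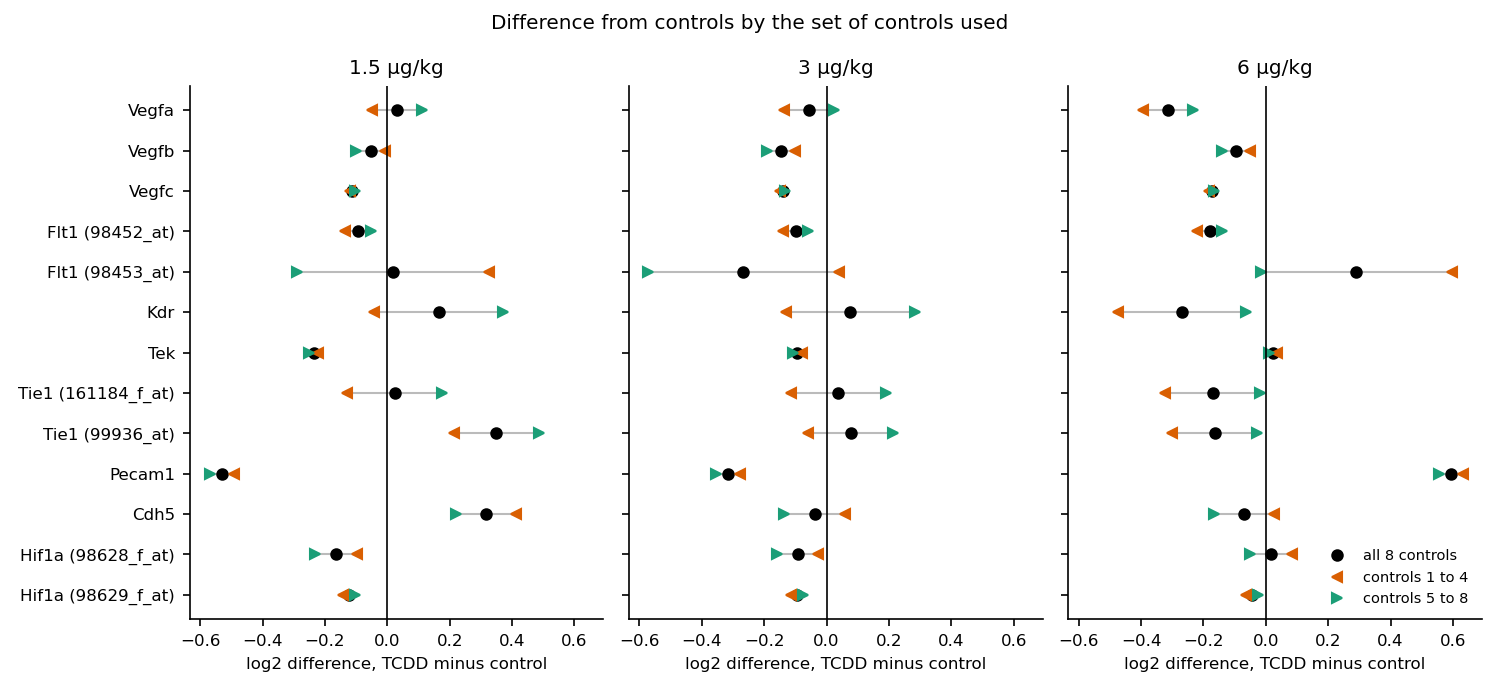
Log2 difference of TCDD minus control (x axis) for the 13 probe sets (y axis) at each dose, relative to all 8 controls (circles), to numbers 1 to 4 (orange) and to numbers 5 to 8 (green). Flt1 98453_at, Kdr and both Tie1 probe sets shift most between the control sets, while Vegfc, Tek and Hif1a 98629_f_at shift least.

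The 2 control sets differed on many probe sets. For the 13, the log2 difference of controls 5 to 8 minus controls 1 to 4 ran from -0.41 (Kdr) to 0.61 (Flt1 98453_at), with -0.30 and -0.27 for Tie1, and the 2 sets overlapped for all 13. They did not overlap for 650 of the 8097 probe sets tested (8.03%). What the numbering of the controls stands for is not stated in the labels. Against either set alone, none of the 13 was called at any dose or in the trend.

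The opposite signs at the lowest and highest dose led to a comparison of 6 with 1.5 µg/kg, chosen after these values were seen. None of the 13 was called, against 0.346% of all probe sets tested (4 higher and 24 lower at 6 µg/kg). At an unadjusted p under 0.05 were Pecam1, Vegfa, Kdr and Tie1 99936_at, 4 of 13, against 15.6% of all. For Pecam1 all 4 arrays at 6 µg/kg were above all 4 at 1.5 µg/kg, a log2 difference of 1.12 ± 0.30 (SE), or a fold of 2.18 with a 95% interval of 1.41 to 3.37 (limma adjusted p = 0.0859). Over the alternatives this difference was 0.90 to 1.33 with adjusted p of 0.0511 to 0.246. For Kdr all 4 arrays at 6 µg/kg were below all 4 at 1.5 µg/kg, with a difference of -0.43 ± 0.18 (limma adjusted p = 0.234). Both Tie1 probe sets had lower means at 6 than at 1.5 µg/kg, with differences of -0.51 ± 0.17 and -0.19 ± 0.13 (limma adjusted p = 0.155 and 0.475). By 161184_f_at all 4 arrays at 6 µg/kg were also below all 4 at 1.5 µg/kg. The share of all probe sets whose arrays separate in this way between the 2 doses was not computed. The endothelial genes thus did not lie on 1 side in this comparison, with Pecam1, Tek and Flt1 98453_at above 0 and Kdr, Tie1, Cdh5 and Flt1 98452_at below. The log2 3′ to 5′ ratio of β-actin and Gapdh was -0.034 to 0.073 at 1.5 µg/kg and 0.057 to 0.160 at 6 µg/kg. With this ratio as a covariate 0 probe sets of the array were called between these doses, against 28 without it.

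As a summary of the endothelial markers, the 6 genes Flt1, Kdr, Tek, Tie1, Pecam1 and Cdh5 were averaged per array as centred log2 values, with the brighter probe set where there are 2. The mean was 0.016 ± 0.13 in controls (SD, n = 8) and, with rising dose, 0.011 ± 0.15, -0.050 ± 0.11 and 0.0055 ± 0.14 (SD, n = 4 each). The groups overlapped throughout. Within groups the pairs of these 6 genes correlated between -0.33 (Tie1 with Pecam1) and 0.60 (Kdr with Tie1). They thus did not vary as 1 set, and whether their mean reads endothelial content was not tested. In RNA of whole hearts, fewer endothelial cells and less RNA per cell cannot be told apart, and neither can local changes that balance across the heart. All 6 genes had mean control signals above the highest array median.

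The wider vascular pathway was read from 7 lists with 145 genes, of which 123 have a probe set and 101 passed the filter on low signals. Read by the brightest probe set of each gene, none was called at any dose, in the trend or between 6 and 1.5 µg/kg. Over all 127 probe sets of these genes 1 was called, 101881_g_at of Col18a1, the source of endostatin, which was lower at 6 than at 1.5 µg/kg with a log2 difference of -0.70 ± 0.14 (SE; limma adjusted p = 0.0352). The other 3 probe sets of Col18a1 were at -0.22 to -0.37 in that comparison and not called. With the 3′ to 5′ ratio of β-actin and Gapdh as a covariate no probe set of the array was called there, 101881_g_at included. At 1.5 µg/kg 56 were above and 45 below controls, at 3 µg/kg 54 and 47, and at 6 µg/kg 48 and 53. Of all 6099 genes tested, 51.7%, 51.5% and 48.5% were above controls. Between 6 and 1.5 µg/kg 38 were above and 63 below, so 37.6% were above, against 49.4% of all genes. At an unadjusted p under 0.05 were 21, 11 and 15 of the 101 in order of dose (20.8%, 10.9% and 14.9%), against 12.6%, 5.92% and 8.76% of all genes tested. Between 6 and 1.5 µg/kg they were 23 of the 101, or 22.8%, against 15.3% of all genes. The genes of the lists were chosen with results known and these shares were not tested.

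Among further ligands, receptors and angiopoietins 8 of 11 genes were measured above the filter, with a median log2 difference of 0.18 at 1.5 µg/kg, 0.057 at 3 and -0.010 at 6. Vegfd, a ligand of the VEGF-C type, was at 0.48, 0.32 and 0.085. Angpt1, the activating ligand of Tek, was at -0.41, -0.29 and 0.012, and Angpt2, which can oppose it, was at 0.47, 0.33 and 0.17. None of them passed (lowest limma adjusted p 0.209). Angpt1 and Angpt2 thus lay on opposite sides of controls at the lowest dose, where Tek was at -0.24. Whether these values are related was not tested. The signals were low, with control means of 151 for Vegfd, 187 for Angpt1 and 123 for Angpt2, against array medians of 171 to 209.9.

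Of the genes of VEGF receptor signalling 15 of 24 passed the filter, with medians of 0.045, 0.042 and -0.021. Nos3, the endothelial nitric oxide synthase, was at 0.28, 0.20 and -0.10, the kinase Fyn at -0.38, -0.27 and -0.36, and Map2k1 of the MAP kinase cascade at -0.40, -0.14 and 0.037. Of HIF pathway genes and hypoxia targets 19 of 25 passed, with medians of -0.025, -0.063 and -0.024. Epas1, the HIF subunit typical of endothelium, was at 0.42, 0.20 and -0.15, the glycolytic enzyme Pgk1 at -0.14, -0.21 and 0.068, and the heme oxygenase Hmox1 at 0.36, 0.35 and 0.12. Of the 19 genes of this list, regulators and targets together, 9, 5 and 8 were above controls in order of dose. Over all genes tested 51.7%, 51.5% and 48.5% were above.

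Other endothelial genes were measured for 28 of 41, of which 16, 16 and 13 were above controls in order of dose. Cldn5, a tight junction protein of endothelium, was at -0.042, -0.087 and -0.32 (SE 0.090, limma adjusted p = 0.270). Nr2f2, a factor of venous identity, was at -0.068, 0.051 and 0.55, and the BMP receptor Acvrl1 at 0.28, 0.20 and 0.036. Tal1, Klf2, Calcrl, Ednrb, Aplnr, Sele and Selp lay below the filter. Of Notch, arterial and venous genes 11 of 15 passed, with Gja4, an arterial connexin, at 0.067, 0.18 and -0.62 (adjusted p = 0.513 at 6 µg/kg by limma), Notch1 at -0.10, -0.12 and -0.24, and Hey1 at 0.025, -0.046 and 0.20. In the pericyte and PDGF list, with 10 of 12, the aminopeptidase Anpep was at 0.60, 0.32 and 0.25, Pdgfa at -0.10, -0.24 and 0.40, and Kcnj8 at -0.23, -0.26 and -0.33. Among inhibitors and proteases, with 10 of 17, the membrane protease Mmp14 was at 0.39, 0.32 and 0.10. Serpinf1, an anti-angiogenic serpin, was at -0.075, 0.055 and 0.73, and Col18a1, by its brightest probe set, at 0.079, 0.021 and -0.18. The lowest limma adjusted p among these 12 genes was 0.107, for Anpep at 1.5 µg/kg.

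**Figure D4:**
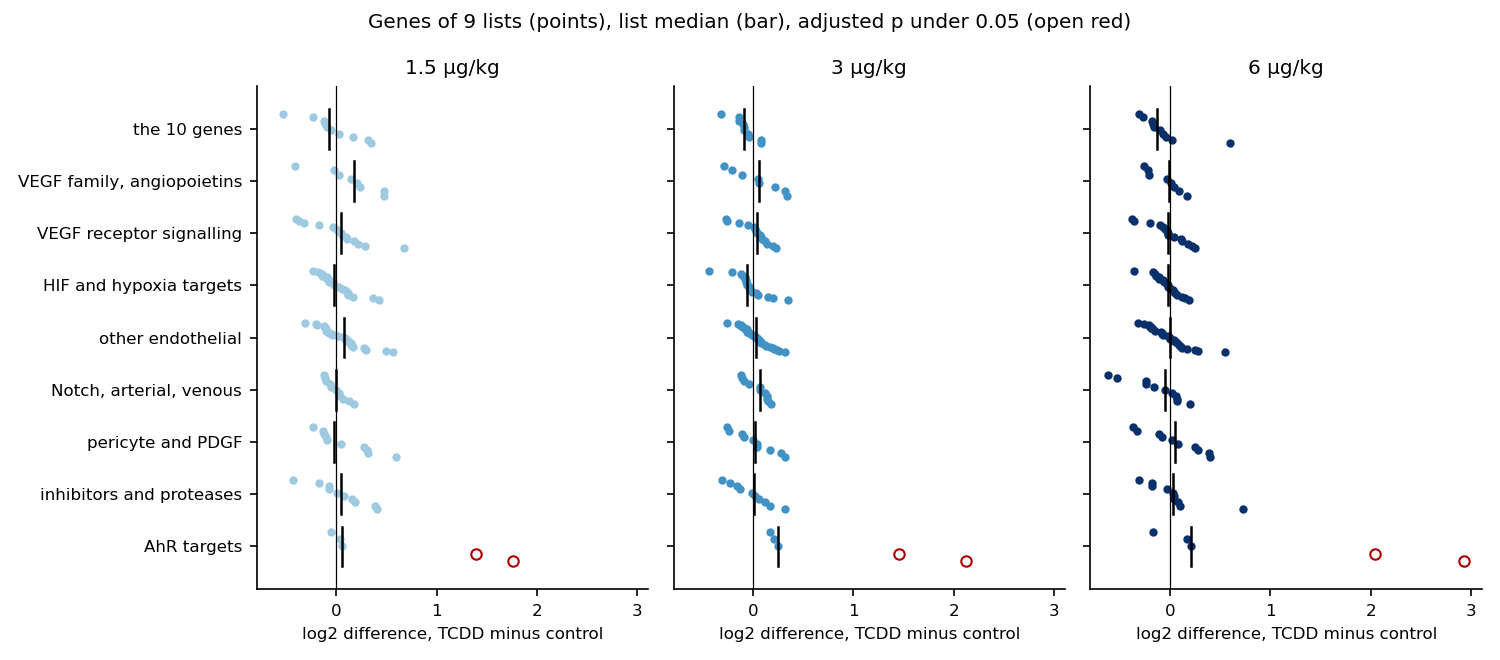
Log2 difference of TCDD minus control (x axis) of each gene above the filter (points) in 9 lists (y axis) at each dose, with the list median as a bar and genes with an adjusted p under 0.05 as open red circles. Cyp1a1 and Cyp1b1 in the AhR list are the ones marked. Each vascular list has genes on both sides of 0 at every dose. Their medians run from -0.13 (the 10 genes at 6 µg/kg) to 0.18 (VEGF family and angiopoietins at 1.5 µg/kg).

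Markers of other cells were read beside these genes because Pecam1 is also found on leukocytes and platelets. All 13 macrophage and leukocyte markers above the filter, of 17 listed, were above controls at every dose, and none passed. At an unadjusted p under 0.05 by limma were 3, 7 and 10 of these 13 markers in order of dose. Over all genes tested these shares were 12.6%, 5.92% and 8.76%. Their summed signal was 3753 to 4225 in controls and, with rising dose, 4694 to 5069, 4818 to 5414 and 5033 to 5543, so each dose group lay above all controls. How often sums of other genes separate in this way was not computed. S100a8, a neutrophil and monocyte protein, was at 0.79 (limma adjusted p = 0.0855) at 6 µg/kg, the protease Ctss at 0.47 and the complement gene C1qa at 0.44. Of the platelet markers 4 of 8 had a probe set and none passed the filter. Pecam1 itself was at -0.53, -0.32 and 0.59 in order of dose. The marker lists too were chosen with results known. The part of these cells in the Pecam1 values was not tested.

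Lung epithelial markers, read as a check on neighbouring tissue, varied widely in every group. The summed signal of 4 genes was 243 to 2889 in controls and, with rising dose, 660.0 to 4009, 426 to 4790.0 and 345 to 3792. The median of this sum was 1171 in controls and, with rising dose, 1817, 3323 and 886. The groups thus overlapped but were not balanced, with the highest median at 3 µg/kg. Of the 4 genes 4, 4 and 2 were above controls in order of dose, and none was called. With their mean as a covariate, chosen after the data were seen, none of the 13 was called. The liver markers summed to 423 to 1544 in controls and, with rising dose, 826 to 3083, 931 to 1342 and 564 to 1517. For smooth muscle, part of the coronary wall, 4, 3 and 0 of 5 genes were above controls in order of dose, with medians of 0.25, 0.023 and -0.14 and none called. Smtn, a smooth muscle cytoskeletal protein, was at 0.25, -0.24 and -0.66 (limma adjusted p = 0.396 at 6 µg/kg). For cardiomyocytes 4, 1 and 8 of 10 were above, with medians of -0.023, -0.066 and 0.085.

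The genes most like these in their scatter were found by Pearson correlation over the 20 arrays after each group's mean was taken off, among 6089 genes. The points share their arrays and labelling, and no test was made. The mean of the 6 endothelial genes was most like Asic2 (r = 0.79), Anpep (0.77), Vps52 (0.75), Slc1a2 (0.74), Mrps5 (0.73) and Daxx (0.71). Vegfa was most like Grsf1 (0.81), Itfg1 (0.81), Cops5 (0.79), Sdha (0.79), Cops4 (0.78) and Rpa1 (0.78). Of these 12 genes Anpep is the 1 that stands in a vascular list.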

How the data were processed

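Per the labels, total RNA was isolated with Trizol and labelled with an ENZO kit. Per the submitters' processing notes, signals were computed with MAS5, version not given in the sources used here. The deposited values are a linear intensity per probe set, and the authors had scaled the arrays alike, to a 2% trimmed mean of 500.28 to 500.341.

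After rescaling to a trimmed mean of exactly 500, log2(signal + 32) was taken. Probe sets with at least 4 arrays at or above their own 40th percentile were kept, 8097 of the 12422 left after 66 AFFX controls, and all 13 of the genes described here were among them. All 20 arrays entered 1 fit with limma 3.58.1 in R 4.3.3 (lmFit, eBayes with an intensity trend), with Benjamini-Hochberg adjustment over the 8097 and a threshold of 0.05. The fit was tested on simulated data. Correlations used 100000 permutations. Gene symbols came from the platform annotation and locations and sequences from RefSeq (GRCm38.p6). The locations of the probes were not used. For lists, each gene was read by its brightest kept probe set.

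The members and lists were chosen with earlier results of these data known. Named were all 10 genes with every probe set, and of each other list the called genes or up to 3 by the smallest p of the joint test of the doses, with 6 genes per likeness. Alternatives were quantile normalization, pseudocounts of 1 and 100, no filter or one at the 60th percentile, either control set, the replicate number as a block, the 3′ to 5′ ratio of β-actin and Gapdh as a covariate, no intensity trend, only the groups compared (for the trend, log2(dose + 1)) and leaving out each array. Chosen after the data were seen were leaving out 4 arrays with a log2 β-actin 3′ to middle ratio over 0.75 (controls 1, 2 and 6 and array 4 of 6 µg/kg), and a lung epithelial score as a covariate. Array numbers did not pair the samples. No 2 arrays were identical.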

Additional observations from a re-analysis of the deposited data

Results flagged for a closer look

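In Tek at 1.5 µg/kg, array 4 had a signal of 501, against 390.1 to 408 in the other 3 arrays of that dose. Its gap to the nearest array was 0.834 of the range of the group. It was the 1 value that stood apart among 52 groups of probe set and dose tested this way, and chance flags about 1 in 20 such groups. The difference of Tek from controls at 1.5 µg/kg was between -0.33 and -0.085 over the alternatives and without each array in turn, and was not called in any of them.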

How the results depend on the processing

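None of the 13 probe sets was called at any dose, in the trend or between 6 and 1.5 µg/kg under the 13 alternatives or without any of the 20 arrays, except that Vegfc was not tested with the filter at the 60th percentile. Of 672 log2 differences under the alternatives 638 kept their sign and 34 did not, and of 1040 without 1 array 1012 kept it and 28 did not. Controls 5 to 8 each stand alone in a replicate block, so the block fit must give the same differences as controls 1 to 4 alone. The 672 and the 34 hold these differences for both settings, and the block is no separate check of them. The causes of the changes below were not tested. Differences that turned, at 1.5 µg/kg: against controls 1 to 4 alone, and with the replicate number as a block, Vegfa -0.050, Kdr -0.041 and Tie1 161184_f_at -0.13. Flt1 98453_at turned to -0.029 with quantile normalization, -0.29 against controls 5 to 8, -0.24 after dropping the 4 arrays with a high β-actin ratio and -0.00082 with the lung score. With the 3′ to 5′ ratio Flt1 98452_at was at 0.0063 and Tie1 161184_f_at at -0.069. At 3 µg/kg, against controls 1 to 4 and with the replicate block, Flt1 98453_at was at 0.041, Kdr at -0.13, Tie1 161184_f_at at -0.11, Tie1 99936_at at -0.059 and Cdh5 at 0.058. Cdh5 was at 0.052 with the 3′ to 5′ ratio. Vegfa was at 0.024 against controls 5 to 8, 0.075 without the 4 arrays and 0.079 with the lung score, where Flt1 98452_at was at 0.013. Kdr was at -0.012 without the 4 arrays. At 6 µg/kg Cdh5 was at 0.027 against controls 1 to 4 and with the replicate block. Against controls 5 to 8 Flt1 98453_at was at -0.017 and Hif1a 98628_f_at at -0.050. Tek was at -0.030 without the 4 arrays. Between 6 and 1.5 µg/kg Flt1 98453_at was at -0.13 with the 3′ to 5′ ratio. Without 1 array in turn, signs turned within these ranges at 1.5 µg/kg: Vegfa -0.059 to 0.12, Flt1 98453_at -0.14 to 0.25 and Tie1 161184_f_at -0.019 to 0.078. At 3 µg/kg they were Vegfa -0.12 to 0.012, Kdr -0.023 to 0.21, Tie1 161184_f_at -0.021 to 0.093, Tie1 99936_at -0.014 to 0.16, Pecam1 -0.62 to 0.034 and Cdh5 -0.11 to 0.027. At 6 µg/kg they were Tek -0.054 to 0.070, Cdh5 -0.10 to 0.0039 and Hif1a 98628_f_at -0.038 to 0.074, and between 6 and 1.5 µg/kg Vegfb -0.076 to 0.0082 and Flt1 98452_at -0.17 to 0.025.

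At an unadjusted p under 0.05, the count of the 13 over the alternatives was 0 to 3 at 1.5 µg/kg, 0 to 2 at 3 µg/kg, 0 to 4 at 6 µg/kg, 0 to 6 for the trend and 3 to 5 between 6 and 1.5 µg/kg. It was 6 for the trend and 4 at 6 µg/kg both against controls 1 to 4 and with the replicate block. With the block the shares of all probe sets tested were 17.5% and 17.4%. Over the alternatives these shares were 10.2% to 17.6% at 1.5 µg/kg, 5.31% to 10.8% at 3 µg/kg and 4.71% to 17.6% at 6 µg/kg. For the trend they were 4.33% to 17.8%, and between 6 and 1.5 µg/kg 13.1% to 19%. The number called over the whole array moved more. At 1.5 µg/kg it was 17, and 8 with no filter, 3 and 153 against controls 1 to 4 and 5 to 8, 2 with the replicate block, 42 with the 3′ to 5′ ratio, 8 with only the groups compared, 30 without the 4 arrays and 4 to 51 without 1 array. At 3 µg/kg it was 2, and 4 and 30 against the control sets and 6 without the 4 arrays. At 6 µg/kg it was 6, and 187 and 3 against the control sets, 122 with the replicate block, 3 without the 4 arrays and 4 to 12 without 1 array. For the trend it was 5, and 2 with no filter, 165 and 2 against the control sets, 130 with the replicate block, 2 without the 4 arrays, 3 with the lung score and 2 to 6 without 1 array. Between 6 and 1.5 µg/kg it was 28, and 44 with quantile normalization, 9 with no filter, 128 and 175 with the control sets, 99 with the replicate block, 52 with only the groups compared, 137 without the 4 arrays and 2 to 71 without 1 array. It was 0 by limma with the 3′ to 5′ ratio, where 1140 had an unadjusted p under 0.05. The replicate numbers do not pair the samples: 24 same-numbered pairs across groups correlated between -0.222 and 0.210 (median -0.0091), and 5 of 16 arrays correlated best with their own number. The number of arrays limits the precision.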
